A study of Homo sapiens with 8 samples.

Results

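The arrays described here ask which genes bFGF changed in human embryonic stem cells (hESCs) when IL-11 was present in both groups. The set comprised 4 of the 8 arrays of the series, 2 labelled +IL-11+bFGF (10 ng/ml IL-11 plus 24 ng/ml bFGF) and 2 labelled +IL-11 (the same IL-11 dose without bFGF), and a probe was kept when its detection p was under 0.01 on both arrays of either group. The rule kept 11516 of 24526 probes, which gave 9156 named genes. All cells had been cultured for 5 days on matrigel in N2B27 medium, and the labels name the line as H1 and the paper as H9, which are both established hESC lines. The remaining 4 arrays, labelled +bFGF and -bFGF (2 each, no IL-11), served to estimate the spread and to set the same contrast beside this one. Whether the 2 arrays of a group are separate cultures is not stated, and the p-values therefore measure array-to-array spread alone, possibly technical.

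bFGF, also called FGF2, binds FGF receptor tyrosine kinases and activates the RAS, RAF, MEK and ERK kinase cascade. Active ERK induces ETS-family transcription factors and, as negative feedback, the Sprouty proteins and dual specificity phosphatases, and these genes are common readouts of FGF signaling. Primed hESCs are usually grown with bFGF together with Activin or NODAL signaling. IL-11 belongs with IL-6 among the cytokines that signal through gp130 (the product of IL6ST), which passes the signal to JAK kinases and STAT3.

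On the 4 arrays, 45.1% to 48.0% of the probes were above detection, and the median intensity before normalization was 113 to 121 over the 8 arrays of the series. Of 14 markers of hESCs, 12 were detected on all 4 arrays and 1, CRIPTO (the array's TDGF1), on none. The squared correlation of log2 levels over all probes averaged 0.978 between +IL-11+bFGF and +IL-11 arrays (4 pairs, 0.9746 to 0.9810), against 0.990 between the 2 +IL-11+bFGF arrays and 0.991 between the 2 +IL-11 arrays. Between +IL-11+bFGF and +bFGF arrays it averaged 0.991 (0.991 to 0.993).

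With bFGF, 520 genes rose and 523 fell (limma with Benjamini-Hochberg adjustment, adjusted p under 0.05). These 1043 genes are 11.4% of the 9156 tested, 5.68% for rises and 5.71% for falls. The shares serve below as the background for each gene group. Since the gene lists were chosen with earlier results of these data known, a count above the background describes the members and is no test. A gene high in 1 group and below detection in the other entered the test through the high group alone, which held for 89 of the rises and 99 of the falls, and in 67 and 60 of these neither array of the low group detected the gene. Changes over 2-fold numbered 141 upward and 160 downward. The median log2 fold change of all genes was -0.00158 and the median standard error (SE) 0.14. In each of the 1043 genes both +IL-11+bFGF arrays lay on the same side of both +IL-11 arrays. Over all genes tested, both lay above in 28% and both below in 29.1%. Where groups are said below to lie apart in a gene that passed, this therefore adds nothing to its call. The count depended on each array: leaving out +IL-11+bFGF replicate 1 left 397 genes and leaving out its replicate 2 left 763. Leaving out the +IL-11 arrays left 452 (replicate 1) and 410 (replicate 2).

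**Figure D1:**
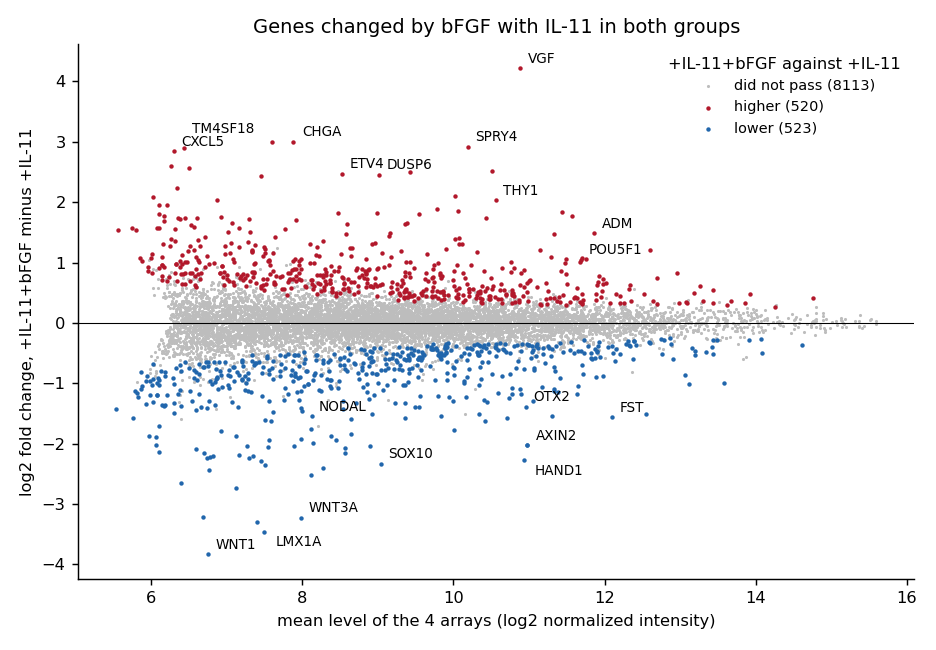
Mean level of the 4 arrays (log2 normalized intensity) against the log2 fold change of +IL-11+bFGF over +IL-11 for each of the 9156 genes. Red points are the 520 genes that rose and blue points the 523 that fell, with VGF highest at 4.22, and the values of genes below detection in a group, such as WNT1, are fitted values and not bounds.

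Levels are given below as normalized intensities on a linear scale, the +IL-11+bFGF arrays first, and fold changes and SE come from the fit on the log2 scale. They compare a gene between groups and not 1 gene with another. Where neither array of a group detected a gene, the fold is only a bound, set against the lowest signal those arrays could detect and given as "at least" N-fold, and the adjusted p beside it tests the limma fold change and not the bound.

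Most feedback inhibitors of ERK rose. Of 12 tested, 10 rose, each detected on all 4 arrays, and 0 fell, with a median log2 fold change of 1.35, against -0.00158 over all genes, and 7 to 9 rose when any single array was left out. SPRY4, a Sprouty inhibitor of receptor tyrosine kinase signaling, had levels of 3219 and 3215 with bFGF added to IL-11, against 458 and 395 with IL-11 alone (log2 fold change 2.92, SE 0.13, adjusted p = 3.43e-06). Both +IL-11+bFGF arrays were about equally high and the groups lay far apart. DUSP6, a cytoplasmic phosphatase that inactivates ERK, had 1067 and 1390, against 203 and 244 in +IL-11 (2.45, SE 0.17, adjusted p = 5.17e-05), and its second probe gave 3.12. SPRY1 had 4085 and 4528, against 1447 and 1651 in +IL-11 (1.48, SE 0.11). SPRY2 had 2236 and 2865, against 779 and 739 in +IL-11 (1.74, SE 0.14). SPRY1 and SPRY2 are Sprouty proteins of the same kind, and for both the lower +IL-11+bFGF array was over the higher +IL-11 array. DUSP5, a nuclear ERK phosphatase, rose 3.48-fold to 1493 and 1301, against 416 and 387 in +IL-11.

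Of 19 transcription factors induced by ERK, 6 rose and 2 fell (median log2 fold change 0.17). ETV4 and ETV5 are PEA3-type ETS factors that act downstream of FGF receptors. ETV5 had levels of 2100 and 2216 in +IL-11+bFGF, against 486 and 519 in +IL-11 (log2 fold change 2.10, SE 0.10, adjusted p = 5.43e-06), and a second, separate probe of the gene gave 0.92. ETV4 had 932 and 816, against 143 and 174 in +IL-11 (2.47, SE 0.15, adjusted p = 2.25e-05). Neither gene's groups overlapped. FOSL1, a FOS-family partner of JUN, was not above detection with IL-11 alone (39.3 and 36.2) and had 171 and 124 with bFGF, at least 1.96-fold higher (adjusted p = 0.000477). MYC, the growth-promoting factor, had 332 and 319, against 171 and 179 in +IL-11 (0.90, adjusted p = 0.00422). JUN rose 1.43-fold, but missed the threshold without +IL-11+bFGF replicate 1 (adjusted p = 0.0513). The 2 that fell were ETS family members: ETS1 fell by 0.85 and ETS2 by 0.43 on the log2 scale, and ETS1 missed the threshold without +IL-11 replicate 2 (adjusted p = 0.0516) and ETS2 without any of the 4 arrays (0.0924 to 0.191).

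Of 18 ligands and receptors of the FGF family tested, 0 rose and 3 fell (median log2 fold change -0.11), and 0 rises is near the 5.68% of all genes. FGF8, a ligand of the midbrain organizer and the primitive streak, had 33.1 and 33.3 in +IL-11+bFGF, not above detection, against 147 and 125 in +IL-11, at least 1.76-fold lower (adjusted p = 0.000309). FGFR3, a receptor, had 1789 and 2527, against 4792 and 4812 in +IL-11 (-1.18, SE 0.15, adjusted p = 0.0012). GPC3, a heparan sulfate proteoglycan of the cell surface, fell by 0.94 on the log2 scale, and missed the threshold without +IL-11+bFGF replicate 1 (adjusted p = 0.144) or +IL-11 replicate 1 (0.15).

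Both groups received IL-11, and its pathway was examined next. Of 12 genes of the gp130 receptor, JAK and STAT pathway, 1 rose and 0 fell (median 0.20). It was OSMR, the oncostatin M receptor, with 93.4 and 106 in +IL-11+bFGF, against 42.1 and 61.6 in +IL-11, which were not above detection (at least 1.33-fold higher, adjusted p = 0.0414). The call was lost whichever of the 4 arrays was left out (adjusted p = 0.0591 to 0.237). STAT3 itself had 1501 and 1236, against 1285 and 1261 in +IL-11 (0.10, SE 0.12, adjusted p = 0.657), so the arrays overlapped. The probe of IL6ST did not pass the detection filter. Of 13 targets of STAT3, 3 rose and 1 fell (median 0.16). TIMP1, an inhibitor of metalloproteinases, had 6850 and 6065, against 4196 and 4120 in +IL-11 (0.63, SE 0.08, adjusted p = 0.00163). SOCS1, a feedback inhibitor of JAK kinases, rose 1.97-fold and CEBPB, a C/EBP transcription factor, 1.45-fold, but SOCS1 missed the threshold without +IL-11+bFGF replicate 1 (adjusted p = 0.125) or +IL-11 replicate 2 (0.122), and CEBPB without +IL-11+bFGF replicate 1 (0.255) or either +IL-11 array (0.0792 and 0.209). BCL6, a transcriptional repressor, fell by 0.87 on the log2 scale (221 and 204, against 390 and 385 in +IL-11, adjusted p = 0.00434).

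Of 16 genes of secretory granules and neuropeptides, 7 rose and 3 fell (median 0.10), and 6 of the rises and 2 of the falls were in genes that passed the detection filter in both groups. The rises numbered 5 and 7 without +IL-11+bFGF replicates 1 and 2, and 4 and 6 without +IL-11 replicates 1 and 2, and the falls 2 and 4, and 2 and 1, in the same order. VGF, which encodes a precursor of secreted neuropeptides, had 8202 and 8111 in +IL-11+bFGF, against 455 and 423 in +IL-11 (log2 fold change 4.22, SE 0.11, adjusted p = 6.49e-08), an 18.6-fold rise. CHGA, the granule protein chromogranin A, had 665 and 671, against 86.8 and 79.8 in +IL-11 (3.00, SE 0.18, adjusted p = 2.25e-05). In both genes the arrays within a group were close together and the groups did not overlap.

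Both promoters carry the 8-base cyclic AMP response element TGACGTCA, which reads the same on both strands, within the window of 250 bases before to 50 after the start of the gene (RefSeq, GRCh38.p14). They are printed because they belong to the top granule genes, with the element in capitals. The VGF window is chr7:101165520-101165819 on the minus strand, where the element begins 79 bases before the start, and the CHGA window is chr14:92922900-92923199 on the plus strand, where it begins 54 bases before the start.
VGF: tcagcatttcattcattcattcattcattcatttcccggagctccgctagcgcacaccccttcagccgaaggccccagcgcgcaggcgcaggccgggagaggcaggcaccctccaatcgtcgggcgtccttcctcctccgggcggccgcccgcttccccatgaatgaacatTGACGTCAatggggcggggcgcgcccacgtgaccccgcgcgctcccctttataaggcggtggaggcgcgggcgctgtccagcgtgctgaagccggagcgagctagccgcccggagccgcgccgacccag
CHGA: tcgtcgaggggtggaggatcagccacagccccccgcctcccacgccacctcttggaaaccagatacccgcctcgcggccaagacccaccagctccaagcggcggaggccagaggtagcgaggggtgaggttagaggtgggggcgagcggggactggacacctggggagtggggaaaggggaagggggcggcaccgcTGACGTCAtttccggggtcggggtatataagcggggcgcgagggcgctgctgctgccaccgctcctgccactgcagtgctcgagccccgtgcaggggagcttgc

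The element lay in 1.85% of all 35116 promoter windows. It lay in 3.31% of the windows of genes that rose (14 of 423 with a window), in 2.44% of those that fell (10 of 409) and in 3.67% of those that did not pass (249 of 6790). Of the 15 largest rises, 10 had a window, and 2 of these held the element. The AP-1 letters TGACTCA, searched on both strands, lay in 4.95% of all windows. They lay in 3.78% of the windows of genes that rose, 2.2% of those that fell and 2.8% of those that did not pass. The ETS letters CCGGAAGT lay in 2.13%, 1.71% and 9.65% of the same 3 sets of windows, and in 4.14% of all windows. A match is a description of the letters and not of binding.

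Other peptides moved in either direction. APLN, the ligand of the apelin receptor, had 174 and 209, against 29.7 and 33.4 in +IL-11, which were not above detection (at least 2.55-fold higher, adjusted p = 0.000109). ADM, the vasodilator adrenomedullin, had 6444 and 6033, against 1944 and 2560 in +IL-11 (1.48, SE 0.16, adjusted p = 0.000646). Both kept their groups apart. NPY, neuropeptide Y, went the other way, with 61.0 and 104, of which 1 array detected it, against 567 and 269 in +IL-11 (-2.29, SE 0.34, adjusted p = 0.00273). SST, somatostatin, fell by 1.87 and NPPB, B-type natriuretic peptide, by 1.14 on the log2 scale. SST missed the threshold without +IL-11 replicate 2 (adjusted p = 0.0708) and NPPB without +IL-11+bFGF replicate 1 (0.123) or either +IL-11 array (0.0639 and 0.113).

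Of the other large rises, TM4SF18, a tetraspanning membrane protein, had 647 and 462, against 62.1 and 76.0 in +IL-11, where 1 of the 2 arrays detected it (2.99, SE 0.22, adjusted p = 7.45e-05). TRIML2, a TRIM-family-like protein, had 1997 and 1360, against 298 and 283 (2.50, SE 0.18), and GLIPR1L1 had 3799 and 3249, against 478 and 781 in +IL-11 (2.52, SE 0.26). HLA-DPB2, annotated as a pseudogene of the HLA class II region, may share signal with related genes and had 244 and 128, against 39.0 and 36.1 in +IL-11, not above detection (at least 2.37-fold higher, adjusted p = 0.00164). In these genes both +IL-11+bFGF arrays lay above both +IL-11 arrays, and in MMP1 and GJA4 the 2 +IL-11+bFGF arrays were themselves far apart. MMP1, a collagenase, had 518 and 93.9, against 38.4 and 36.0 in +IL-11 (at least 2.96-fold higher, adjusted p = 0.0207). GJA4, the gap junction protein connexin 37, had 112 and 503, against 31.0 and 32.6 in +IL-11 (at least 3.18-fold higher, adjusted p = 0.00801). Neither was above detection on the +IL-11 arrays. Both bounds rest on the mean of 2 unlike arrays, and the lower array of each gene lies below its bound. MMP1 and GJA4 missed the threshold without +IL-11 replicate 1 (adjusted p = 0.0894 and 0.0522) or +IL-11 replicate 2 (0.111 and 0.0516).

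**Figure D2:**
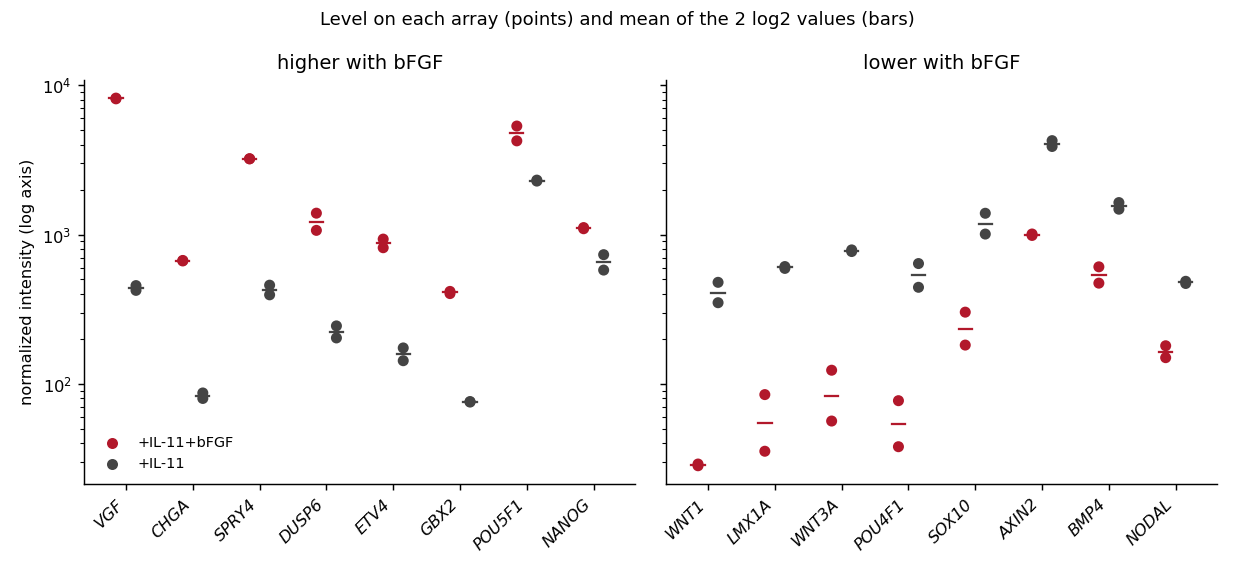
Normalized intensity (log axis) of 16 genes on each array, +IL-11+bFGF in red at the left of each pair and +IL-11 in grey, with the mean of the 2 log2 values as a bar. The groups do not overlap in any of these genes, as in all 1043 genes that passed. VGF (8202 and 8111, against 455 and 423) is the widest pair among those that rose.

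In the pluripotency list, chosen with earlier results of these data known, more genes rose than fell with bFGF. Of 33 tested, 17 rose and 4 fell (median log2 fold change 0.55), and 12 to 15 rose when any single array was left out. Of these, 14 rises and 3 falls were in genes that passed the detection filter in both groups. POU5F1, the octamer factor OCT4, had 5331 and 4242 in +IL-11+bFGF, against 2281 and 2315 in +IL-11 (1.05, SE 0.11, adjusted p = 0.000539). NANOG, a homeobox factor of undifferentiated cells, had 1094 and 1113, against 578 and 733 in +IL-11 (0.76, SE 0.13, adjusted p = 0.005). SOX2, which partners with OCT4 and also marks neural progenitors, had 4196 and 4506, against 4074 and 4439 in +IL-11 (0.03, SE 0.08, adjusted p = 0.853). POU5F1 and NANOG were thus separated between the groups and SOX2 overlapped. POLR3G, a subunit of RNA polymerase III, had 401 and 355, against 117 and 139 in +IL-11 (1.56, SE 0.14). SEPHS1, selenophosphate synthetase, had 10008 and 8900, against 3942 and 4206 in +IL-11 (1.21, SE 0.12). TERF1, which binds telomere repeats, had 4398 and 3934, against 2015 and 1990 in +IL-11 (1.05, SE 0.10). All 3 lay well apart between the groups, as did DPPA4 and L1TD1, which mark undifferentiated cells and rose 1.78-fold and 1.99-fold.

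CXCL5, a chemokine, was not above detection with IL-11 alone (28.1 and 31.5) and had 165 and 276 with bFGF, at least 2.86-fold higher (adjusted p = 0.000137). UTF1, a chromatin factor of undifferentiated cells that was chosen after its values were seen, had 90.01 and 72.4, against 27.0 and 28.3, not above detection (at least 1.08-fold higher, adjusted p = 0.00193). EPCAM, an adhesion molecule of epithelia, had 128 and 111, against 50.1 and 48.9 in +IL-11, not above detection (at least 1.60-fold higher, adjusted p = 0.00208). The 4 pluripotency genes that fell were OTX2, FOXD3, HESX1 and ALPL. OTX2, a homeobox factor of the epiblast and the anterior brain, had 1272 and 1206, against 3187 and 3285 in +IL-11 (-1.39, SE 0.10, adjusted p = 7.45e-05), and its 2 further probes fell also (-2.02 and -1.205). HESX1, a homeobox repressor, fell by 1.15 and ALPL, tissue-nonspecific alkaline phosphatase, by 0.30 on the log2 scale. HESX1 missed the threshold without +IL-11+bFGF replicate 2 (adjusted p = 0.0761) or either +IL-11 array (0.058 and 0.0976), and ALPL without either +IL-11+bFGF array (0.188 and 0.105) or +IL-11 replicate 1 (0.212).

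Among genes of naive pluripotency, only 4 of 14 on the array were tested. GBX2, a homeobox gene that is also a hindbrain factor, had 402 and 416, against 76.1 and 75.5 in +IL-11 (2.43, SE 0.15, adjusted p = 2.39e-05). SUSD2, a surface protein, fell by 0.56 on the log2 scale and lost its call without any 1 of the 4 arrays (adjusted p = 0.0792 to 0.114). KLF2, a Krüppel-like factor, had 254 and 188, against 145 and 157 in +IL-11 (adjusted p = 0.12).

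In the Activin and NODAL pathway, which signals through SMAD2 and SMAD3, 0 of 16 genes rose and 4 fell (median -0.35). FST, follistatin, which binds and blocks Activin, had 2198 and 2959 in +IL-11+bFGF, against 7839 and 7239 in +IL-11 (-1.56, SE 0.13, adjusted p = 0.000137). NODAL, a ligand of the pathway, had 180 and 150, against 470 and 486 in +IL-11 (-1.54, SE 0.15, adjusted p = 0.000309). Both the ligand and the antagonist were thus lower with no overlap. LEFTY2, an inhibitor of NODAL, fell by 0.94 and SMAD4, the SMAD shared by the family, by 0.41 on the log2 scale. LEFTY2 missed the threshold without +IL-11+bFGF replicate 2 (adjusted p = 0.166) or either +IL-11 array (0.0782 and 0.187), and SMAD4 without any 1 of the 4 (0.0642 to 0.227).

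In the BMP pathway, whose ligands drive extraembryonic and epidermal fates through SMAD1 and SMAD5, 0 of 16 genes rose and 12 fell (median -0.90), 10 of them in genes that passed the detection filter in both groups. Without +IL-11 replicate 1 the falls numbered 4, without +IL-11+bFGF replicate 1 they numbered 6, and with either other array left out 9 or 12. BMP4, a ligand, had 473 and 608, against 1478 and 1637 in +IL-11 (-1.54, SE 0.22, adjusted p = 0.00232), and its second probe gave -1.50. ID2, a direct target that blocks basic helix-loop-helix factors, had 977 and 1248, against 2700 and 2543 in +IL-11 (-1.25, SE 0.12, adjusted p = 0.000316). ID1, a gene of the same kind, had 1602 and 1676, against 3237 and 2437 in +IL-11 (-0.78, SE 0.13). Ligand and targets all lay below the +IL-11 arrays. MSX1, a homeobox target, had 767 and 1298, against 4174 and 3924 in +IL-11 (-2.02, SE 0.28). DLX5, another homeobox target, had 131 and 249, against 1034 and 618 in +IL-11 (-2.15, SE 0.37), and missed the threshold without +IL-11 replicate 1 (adjusted p = 0.0526).

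Several WNT ligands were lower with bFGF. Of 20 ligands and receptors tested, 5 fell and 1 rose, but 4 of the 5 (WNT1, WNT3A, WNT4 and WNT10B) had passed the detection filter only in +IL-11, where they were high, so that the count is no measure of the family. WNT1, a ligand of the midbrain and the dorsal neural tube, had 29.0 and 28.3 in +IL-11+bFGF, not above detection, against 479 and 349 in +IL-11, at least 5.32-fold lower (adjusted p = 1.75e-05). WNT4 had 30.5 and 37.8, not above detection, against 320 and 313 in +IL-11, at least 4.12-fold lower (adjusted p = 1.75e-05). WNT3A, a ligand of the canonical pathway, had 56.3 and 123, of which 1 array detected it, against 770 and 789 in +IL-11 (-3.22, SE 0.31, adjusted p = 0.000309). All 3 ligands were thus near or below the detection limit with bFGF and well above it without. WNT10B, a ligand not above detection on either +IL-11+bFGF array, was at least 1.46-fold lower and FZD8, a receptor, fell also (adjusted p = 0.0229 and 0.0348), but WNT10B missed the threshold without +IL-11+bFGF replicate 1 (0.155) or either +IL-11 array (0.146 and 0.0686), and FZD8 without +IL-11+bFGF replicate 2 (0.18) or either +IL-11 array (0.18 and 0.1). The 1 that rose was SFRP2, a secreted antagonist of WNT, with 3507 and 3373, against 1457 and 1535 in +IL-11 (2.30-fold, adjusted p = 0.000109).

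Genes that beta-catenin induces, among them feedback inhibitors of the WNT pathway, fell in 7 of 10 cases, and 0 rose (median -1.26, 6 to 8 falls with single arrays left out). AXIN2, a scaffold for beta-catenin destruction, had 1008 and 986, against 4256 and 3890 in +IL-11 (-2.03, SE 0.09, adjusted p = 3.43e-06). NKD1, an inhibitor of dishevelled, had 66.0 and 87.3, with 1 of 2 arrays above detection, against 358 and 341 in +IL-11 (-2.20, SE 0.23). SP5, a zinc finger factor, had 140 and 226, against 821 and 569 in +IL-11 (-1.94, SE 0.24, adjusted p = 0.0011). None of the 3 overlapped between the groups. APCDD1, an inhibitor of WNT receptors, fell 2.84-fold, TNFRSF19, a receptor of the TNF family, 3.07-fold, and LEF1, a partner of beta-catenin on DNA, 2.03-fold.

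The SP5 promoter window (chr2:170715087-170715386, plus strand, GRCh38.p14) holds the letters CTTTGAT, to which TCF and LEF factors bind, beginning 109 bases before the start, and is shown as that of a WNT target, with these letters in capitals.
SP5: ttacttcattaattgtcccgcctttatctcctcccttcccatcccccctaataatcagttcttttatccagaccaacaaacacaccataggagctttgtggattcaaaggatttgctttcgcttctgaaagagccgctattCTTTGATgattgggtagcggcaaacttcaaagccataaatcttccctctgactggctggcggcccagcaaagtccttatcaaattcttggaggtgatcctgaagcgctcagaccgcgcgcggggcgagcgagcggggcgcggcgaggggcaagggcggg

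Searched on both strands, these letters lay in 2.62% of all windows, in 0.946% of the windows of genes that rose, in 1.96% of those that fell and in 1.47% of those that did not pass. Of the 15 largest falls, which do not include SP5, 13 had a window, and 1 of these, HAND1, held the letters. Whether the windows of the other WNT targets hold them is not given here.

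Of 15 midbrain, hindbrain and roof plate genes, which include WNT1, 7 fell and 2 rose (median -0.65), and 4 of the falls and 1 of the rises were in genes that passed the detection filter in both groups. LMX1A, a homeobox factor of the roof plate and midbrain floor, had 35.4 and 84.7, of which 1 array detected it, against 593 and 610 in +IL-11 (-3.46, SE 0.32, adjusted p = 0.00028). BARHL1, a homeobox gene of the developing hindbrain, had 28.3 and 40.3, not above detection, against 228 and 198 in +IL-11, at least 2.76-fold lower (adjusted p = 9.36e-05). DMBX1, a homeobox gene of the midbrain, had 39.8 and 61.0, not above detection, against 259 and 207 in +IL-11, at least 3.02-fold lower (adjusted p = 0.000477). The +IL-11+bFGF arrays were thus at or near the floor in each. The 2 that rose were GBX2 and PAX8, a paired box factor that was not above detection in +IL-11 (102 and 178, against 31.0 and 32.4, at least 1.81-fold higher, adjusted p = 0.00193).

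Neural crest cells arise at the border of the neural plate, where WNT and BMP signals meet. Of 13 neural crest and sensory neuron genes, 10 fell and 1 rose (median -1.19, 8 to 10 falls with single arrays left out), and 7 of the falls were in genes that passed the detection filter in both groups. POU4F1, a POU factor of sensory neurons, had 37.9 and 77.1, of which 1 array detected it, against 443 and 639 in +IL-11 (-3.30, SE 0.31, adjusted p = 0.000293). SOX10, which specifies neural crest and glia, had 182 and 302, against 1388 and 1008 in +IL-11 (-2.34, SE 0.24, adjusted p = 0.000477). FOXD3, a forkhead factor of both pluripotent and neural crest cells, had 57.5 and 45.3, not above detection, against 334 and 168 in +IL-11, at least 3.08-fold lower (adjusted p = 0.00191). The groups did not overlap for these. SNAI2, a zinc finger factor of migrating cells, had 932 and 887, against 1656 and 2077 in +IL-11 (-1.03, SE 0.14). EDNRB, the endothelin receptor of crest cells, was the 1 that rose, with 1934 and 1902, against 945 and 769 in +IL-11 (1.17, SE 0.12, adjusted p = 0.000324).

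Of 23 genes of neural progenitors and neurons, 10 fell and 3 rose (median -0.61). Fewer falls passed with each single array left out, so the count of 10 is not stable. Such a fit has 1 array in a group, and the reason for the loss was not tested. DLL1, a ligand of Notch, had 148 and 233, against 793 and 773 in +IL-11 (-2.08, SE 0.22, adjusted p = 0.000539). PAX6, a paired box factor of neuroectoderm chosen after its values were seen, had 42.9 and 124, of which 1 array detected it, against 344 and 341 in +IL-11 (-2.23, SE 0.47, adjusted p = 0.0158), and missed the threshold without +IL-11+bFGF replicate 1 (0.089) or either +IL-11 array (0.0803 and 0.0874). The replicate 2 array of +IL-11+bFGF was the higher for both. The 3 that rose were NEFM, SOX3 and NEFL. NEFM, a neurofilament subunit, had 3635 and 7540, against 1326 and 1618 in +IL-11 (1.84, SE 0.27, adjusted p = 0.00289). NEFL, another neurofilament subunit, rose 1.79-fold and SOX3, a SOX factor close to SOX2, 1.88-fold. NEFL missed the threshold without +IL-11+bFGF replicate 2 (adjusted p = 0.153) or either +IL-11 array (0.158 and 0.0664), and SOX3 without +IL-11+bFGF replicate 2 (0.0878) or +IL-11 replicate 2 (0.112).

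In the Notch pathway 5 of 19 genes fell and 1 rose (median -0.33). Those that fell were DLL1, the repressors HEYL (-1.60), HES4 (-1.14) and HES6 (-0.77), and the receptor NOTCH2 (-0.53). HEYL had 99.1 and 110, against 321 and 314 in +IL-11 (SE 0.19, adjusted p = 0.000941). HEY2, a repressor of the same family as HEYL, was the 1 that rose, with 663 and 572, against 330 and 347 in +IL-11 (0.86, SE 0.12, adjusted p = 0.00196). HES6 missed the threshold without +IL-11 replicate 2 (adjusted p = 0.061) and NOTCH2 without any 1 of the 4 arrays (0.095 to 0.218).

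**Figure D3:**
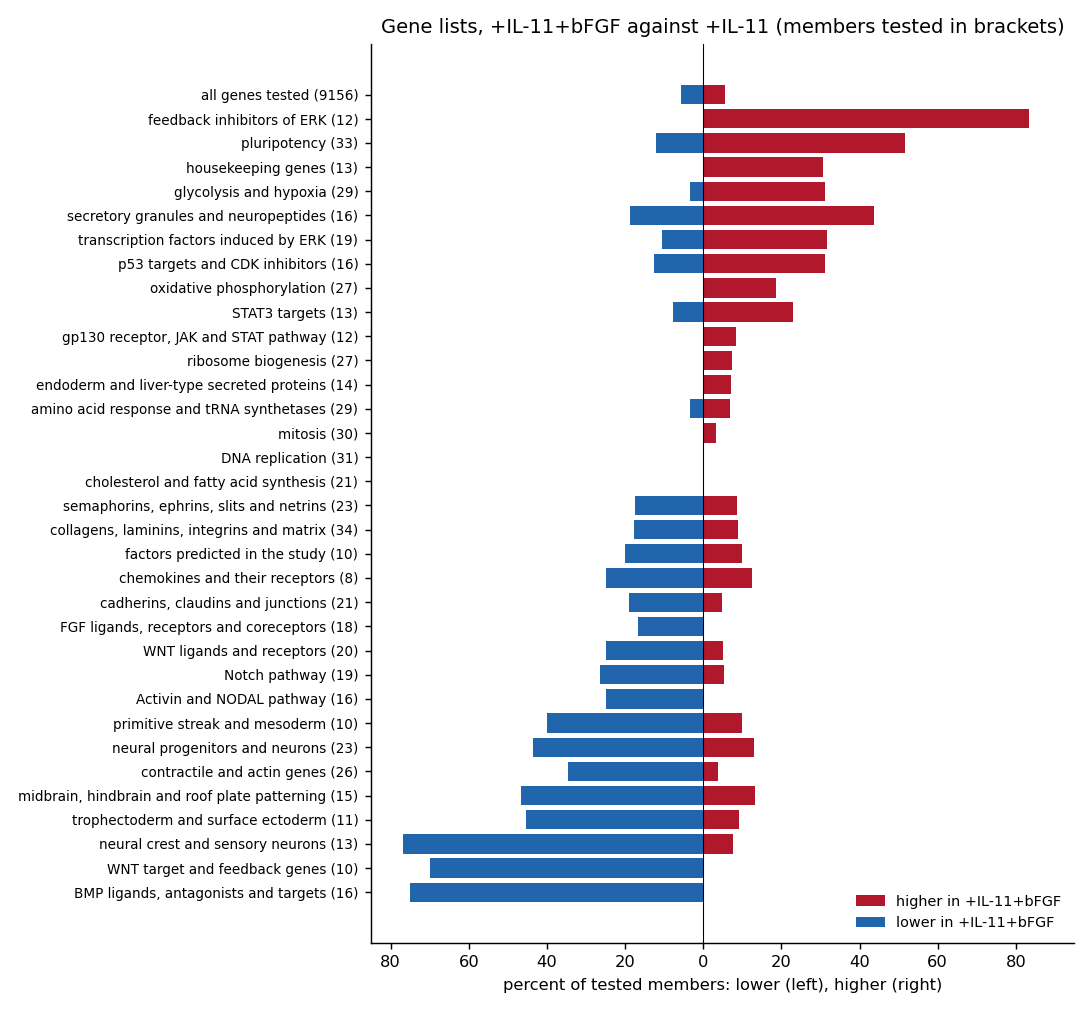
Percent of the tested members of each gene list that fell (blue, left) and rose (red, right) in +IL-11+bFGF against +IL-11, for lists with 8 or more members tested. Lists are ordered by the percent higher minus the percent lower below all genes tested (5.68% higher and 5.71% lower), with the feedback inhibitors of ERK (10 of 12 higher) first and the BMP list (12 of 16 lower) last.

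Markers of other lineages were partly lower. Of 11 trophectoderm and surface ectoderm genes, 5 fell and 1, EPCAM, rose (median -0.59). TFAP2C, an AP-2 factor, had 616 and 686 in +IL-11+bFGF, against 1882 and 1348 in +IL-11 (-1.29, SE 0.18, adjusted p = 0.00201). KRT19, a keratin, and TFAP2A, a second AP-2 factor, fell 1.84-fold and 2.27-fold, and GRHL3, a grainyhead factor detected on 1 +IL-11+bFGF array, 2.62-fold. KRT19 missed the threshold without +IL-11 replicate 1 (adjusted p = 0.0511), TFAP2A without replicate 1 of either group (0.0619 for +IL-11+bFGF and 0.0606 for +IL-11), and GRHL3 without +IL-11+bFGF replicate 1 (0.23) or either +IL-11 array (0.208 and 0.0658). HAND1, a factor of trophoblast and mesoderm, had 583 and 1365, against 3613 and 5157 in +IL-11 (-2.27, SE 0.55, adjusted p = 0.0262), and missed the threshold without +IL-11+bFGF replicate 1 (0.18) or either +IL-11 array (0.0775 and 0.157). One further probe of TFAP2A gave -0.34 (adjusted p = 0.438 over all probes) and the other -1.27.

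Of 10 primitive streak and mesoderm genes, 4 fell and 1 rose (median -0.67), of which 2 falls and 0 rises were in genes that passed the detection filter in both groups. Those that fell were SNAI2, HAND1, MIXL1 and MESP1. MIXL1, a homeobox factor of the primitive streak, had 55.7 and 80.6, of which 1 array detected it, against 283 and 331 in +IL-11 (-2.19, SE 0.38, adjusted p = 0.00603), and missed the threshold without +IL-11 replicate 2 (0.0524). MESP1, a factor of early mesoderm, was at least 1.47-fold lower (adjusted p = 0.0426), and missed it without +IL-11+bFGF replicate 1 (0.259) or either +IL-11 array (0.0552 and 0.273). LHX1, a LIM homeobox factor, was the 1 that rose, with 111 and 207, against 37.2 and 57.1 in +IL-11, not above detection (at least 2.03-fold higher, adjusted p = 0.00916), and missed it without +IL-11 replicate 1 (0.0724).

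Of 14 endoderm and liver-type genes, 0 fell and 1 rose (median -0.37), and the 2 +IL-11+bFGF arrays disagreed widely. AFP, alpha-fetoprotein of yolk sac and fetal liver, had 235 and 1924, against 1466 and 2522 in +IL-11 (-1.52, SE 0.83, adjusted p = 0.294). TTR, the carrier transthyretin, had 197 and 1568, against 806 and 1420 in +IL-11 (-0.95, SE 0.78, adjusted p = 0.502). APOA1, an apolipoprotein, had 392 and 1871, against 1878 and 1796 in +IL-11 (-1.10, SE 0.60, adjusted p = 0.289). In all 3 replicate 1 of +IL-11+bFGF was low and replicate 2 was within or near the +IL-11 levels, and APOA2, chosen after its values were seen, had 804 and 3996, against 2608 and 2952. Without +IL-11+bFGF replicate 2, AFP, TTR, APOA1 and APOA2 passed as lower (log2 fold changes of -3.03, -2.44, -2.23 and -1.79, adjusted p = 0.014, 0.0177, 0.00933 and 0.0154). Without +IL-11+bFGF replicate 1 the same genes gave 0.000738, 0.55, 0.03 and 0.53, with adjusted p = 0.508 or more. FOXA3, a forkhead factor and the 1 that rose, had 839 and 730, against 619 and 547 in +IL-11 (0.43, adjusted p = 0.0386), and lost its call without any 1 of the 4 arrays.

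Metabolic genes moved by less than 2-fold in most cases. Of 29 genes of glycolysis and the hypoxia response, 9 rose and 1 fell (median 0.28). The rises numbered 7 without +IL-11+bFGF replicate 2, 4 without its replicate 1, and 3 and 4 without +IL-11 replicates 1 and 2. Apart from ADM, HK1, hexokinase 1, had 8300 and 8809 in +IL-11+bFGF, against 5251 and 5006 in +IL-11 (0.74, SE 0.09, adjusted p = 0.00144). ALDOC, aldolase C, had 4938 and 4796, against 2991 and 3084 in +IL-11 (0.68, SE 0.09, adjusted p = 0.00155). Both enzymes' arrays were tightly grouped. LDHA, lactate dehydrogenase A, and ENO1, enolase 1, rose 1.40-fold and 1.32-fold, but LDHA missed the threshold without +IL-11 replicate 1 (adjusted p = 0.0508) and ENO1 without +IL-11+bFGF replicate 1 (0.07) or either +IL-11 array (0.0517 and 0.0648). EGLN3, a prolyl hydroxylase of the oxygen sensing pathway, was the 1 that fell (50.6 and 57.8, not above detection, against 94.1 and 105, at least 1.29-fold lower, adjusted p = 0.016), and missed it without +IL-11+bFGF replicate 1 (0.106) or either +IL-11 array (0.0648 and 0.123).

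Genes of growth and division changed little. Of 31 DNA replication genes, 0 passed in either direction (median 0.07, range -0.19 to 0.25), and of 21 genes of cholesterol and fatty acid synthesis, 0 passed (median -0.01, range -0.27 to 0.29). The lowest replication fold change was in MCM6, a subunit of the replicative helicase (7405 and 6951, against 7962 and 8425 in +IL-11, -0.19, SE 0.09, adjusted p = 0.238). Both +IL-11+bFGF arrays lay below both +IL-11 arrays in 5 of the 31 replication genes and above them in 16. Of 30 mitosis genes (median 0.13), 1 rose (CDC25C, a mitotic phosphatase, 1.36-fold, adjusted p = 0.0376), and it lost its call without any 1 of the 4 arrays. Among 27 genes of ribosome biogenesis (median 0.19), 2 rose (LYAR, 1.38-fold, and nucleolin, NCL, 1.27-fold) and 0 fell. Both lost their calls without any 1 array. Both +IL-11+bFGF arrays lay above in 12 of the 30 mitosis and 17 of the 27 ribosome biogenesis genes, and below in 2 and 1. Over all genes tested, both lay above in 28% and below in 29.1%. That is the background for these counts and for those of the replication genes.

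Of 27 oxidative phosphorylation genes, 5 rose (SDHA, SDHD, ATP5MC1, COX5A and COX8A, 1.23-fold to 1.46-fold) and 0 fell (median 0.15), and each of these 5 missed the threshold without at least 3 of the 4 arrays in turn. With median scaling in place of quantile normalization, which shifts the median of all genes to 0.03, 8 of the 27 rose. Of 29 genes of the amino acid response and tRNA synthetases, 2 rose and 1 fell. SLC7A5, a transporter of large neutral amino acids, had 3088 and 2848, against 4405 and 4558 in +IL-11 (-0.60, SE 0.09, adjusted p = 0.00348). TARS1, threonyl-tRNA synthetase, and SHMT2, a mitochondrial enzyme of serine metabolism, rose 1.42-fold and 1.29-fold. TARS1 missed the threshold without replicate 1 of either group (adjusted p = 0.127 for +IL-11+bFGF and 0.105 for +IL-11), and SHMT2 without +IL-11+bFGF replicate 1 (0.133) or either +IL-11 array (0.0689 and 0.112).

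Of 16 p53 targets and CDK inhibitors, 5 rose and 2 fell (median -0.000928). PMAIP1, which encodes the pro-apoptotic protein NOXA, had 876 and 719, against 361 and 352 in +IL-11 (1.15, SE 0.14, adjusted p = 0.00114). RRM2B, a p53-induced subunit of ribonucleotide reductase, had 196 and 198, against 92.1 and 85.3 in +IL-11 (1.15, SE 0.15, adjusted p = 0.00132). CDKN1A, the CDK inhibitor p21, had 5433 and 4949, against 2842 and 3475 in +IL-11 (0.72, SE 0.12, adjusted p = 0.00426). All 3 were higher on both +IL-11+bFGF arrays. TNFRSF10B, a death receptor, and SESN1, a stress-induced sestrin, rose 1.34-fold and 1.39-fold, and GADD45G, a growth arrest gene, and CDKN1C, the CDK inhibitor p57, fell 1.86-fold and 1.82-fold. GADD45G missed the threshold without +IL-11 replicate 2 (adjusted p = 0.0639), TNFRSF10B without +IL-11+bFGF replicate 2 (0.104) or either +IL-11 array (0.0869 and 0.0817), and SESN1 and CDKN1C without any 1 of the 4 arrays.

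Contractile and matrix genes leaned downward. Of 26 contractile and actin genes, 9 fell and 1 rose (median -0.28). The falls numbered 4 and 2 without +IL-11+bFGF replicates 1 and 2, and 7 and 3 without +IL-11 replicates 1 and 2. ACTC1, cardiac alpha-actin, had 925 and 1010 in +IL-11+bFGF, against 2636 and 3152 in +IL-11 (-1.58, SE 0.13, adjusted p = 0.000109). ACTA1, skeletal alpha-actin, had 1656 and 1859, against 3811 and 3721 in +IL-11 (-1.10, SE 0.13, adjusted p = 0.000989). Both were clearly separated. VCL, vinculin of focal adhesions, was the 1 that rose, 1.29-fold, and missed the threshold without either +IL-11+bFGF array (adjusted p = 0.1 and 0.135) or +IL-11 replicate 1 (0.181).

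Of 34 genes of collagens, laminins, integrins and matrix, 6 fell and 3 rose (median -0.26). The falls numbered 3 and 4 without +IL-11+bFGF replicates 1 and 2, and 5 and 0 without +IL-11 replicates 1 and 2, and 0 rises were left unless the array left out was +IL-11+bFGF replicate 2. LAMA5, a laminin chain, fell 1.54-fold, and THBS1, thrombospondin 1, fell 1.92-fold, while the integrin chains ITGA3, ITGB1 and ITGA2 rose 1.52-fold, 1.28-fold and 1.55-fold. LAMA5 missed the threshold without +IL-11+bFGF replicate 1 (adjusted p = 0.0868) or +IL-11 replicate 2 (0.0885) and THBS1 without replicate 2 of either group (0.0766 for +IL-11+bFGF and 0.117 for +IL-11). ITGA3 and ITGB1 missed it without +IL-11+bFGF replicate 1 (0.102 and 0.138) or either +IL-11 array (0.0571 to 0.121), and ITGA2 without any 1 array (0.103 to 0.181). Of 21 cadherins, claudins and junction genes, 4 fell (PCDH18, PKP2, CDH2 and GJA1, 1.30-fold to 1.67-fold) and 1, EPCAM, rose, and PCDH18 and EPCAM passed with each array left out. PKP2, CDH2 and GJA1 missed the threshold without +IL-11+bFGF replicate 1 (adjusted p = 0.123, 0.128 and 0.198), and also without +IL-11 replicate 1 (PKP2, 0.116, and GJA1, 0.144) or replicate 2 (CDH2, 0.129, and GJA1, 0.0809).

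Among axon guidance genes 4 of 23 fell and 2 rose (median -0.34), and 2 of the falls passed the detection filter only in +IL-11. EPHA1, an ephrin receptor, had 1841 and 1535, against 711 and 582 in +IL-11 (1.39, SE 0.16, adjusted p = 0.000989). SLIT1, a repulsive guidance ligand, had 29.5 and 41.7, not above detection, against 147 and 114 in +IL-11, at least 1.69-fold lower (adjusted p = 0.00178). The receptor EPHA2 rose 1.49-fold, and the ligands EFNA1, EFNB3 and SEMA5A were the others that fell (adjusted p = 0.00782, 0.0356 and 0.0217), SEMA5A by at least 1.45-fold, since neither +IL-11+bFGF array detected it. These 4 missed the threshold without +IL-11+bFGF replicate 1 (adjusted p = 0.172, 0.0526, 0.198 and 0.103, in the order EPHA2, EFNA1, EFNB3, SEMA5A) or +IL-11 replicate 1 (0.145, 0.065, 0.0771 and 0.101), and EPHA2, EFNB3 and SEMA5A also without +IL-11 replicate 2 (0.0846, 0.205 and 0.126).

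Markers of fibroblast-like support cells were measured beside these lists. On the array were 16 of 17 such markers, of which 11 were detected on all 4 arrays and 4 on none (LUM, POSTN, FBN1 and MEOX2). Their summed level was 29130 and 22959 in +IL-11+bFGF, against 29299 and 36906 in +IL-11. Of 11 tested, 3 collagen and matrix genes fell (COL3A1, COL1A2 and decorin, DCN), and THY1, a surface marker that hESCs also carry, rose (3230 and 2910, against 758 and 741, 2.03, SE 0.13, adjusted p = 2.48e-05). COL3A1, COL1A2 and DCN each missed the threshold without replicate 2 of +IL-11+bFGF (adjusted p = 0.0624, 0.256 and 0.0967) or of +IL-11 (0.181, 0.23 and 0.14), COL3A1 and DCN also without +IL-11+bFGF replicate 1 (0.149 and 0.11) and COL1A2 without +IL-11 replicate 1 (0.12). The part of such cells in the contractile and matrix falls was not tested. In arrays of whole cultures, fewer cells of a type and less RNA per cell cannot be told apart. The summed level of the 14 hESC markers was 67626 and 61805 in +IL-11+bFGF, against 50703 and 48799 in +IL-11, and of 13 tested 8 rose and 0 fell. Of 13 housekeeping genes, 4 rose (SDHA, PGK1, B2M and HPRT1, 1.44-fold to 1.59-fold) and 0 fell (median 0.07). The rises numbered 2 without +IL-11+bFGF replicate 2 and 1 without any other array.

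The 2 +IL-11+bFGF arrays differed in how far they stood from +IL-11. Replicate 2 was the nearer of the pair for 367 of the 523 genes that fell and for 344 of the 520 that rose. The median log2 difference from the mean of +IL-11 was -0.78 on replicate 1 and -0.69 on replicate 2 for the genes that fell, and 0.78 and 0.68 for those that rose. CNTN2, an adhesion molecule of axons and one of the 15 largest falls, had 61.5 and 298, of which 1 array detected it, against 510 and 996 in +IL-11 (-2.40, SE 0.61, adjusted p = 0.0331), and missed the threshold without +IL-11+bFGF replicate 1 (0.134) or either +IL-11 array (0.0639 and 0.202). Also among the largest falls were HDC, histidine decarboxylase, SLN, sarcolipin, and MUSTN1, a musculoskeletal protein. HDC had 39.4 and 75.3, against 427 and 305 in +IL-11, and MUSTN1 had 65.6 and 98.8, against 487 and 350, each detected on 1 of the 2 +IL-11+bFGF arrays. SLN had 43.9 and 50.7, not above detection, against 292 and 222 in +IL-11, at least 3.31-fold lower (adjusted p = 0.00062).

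**Figure D4:**
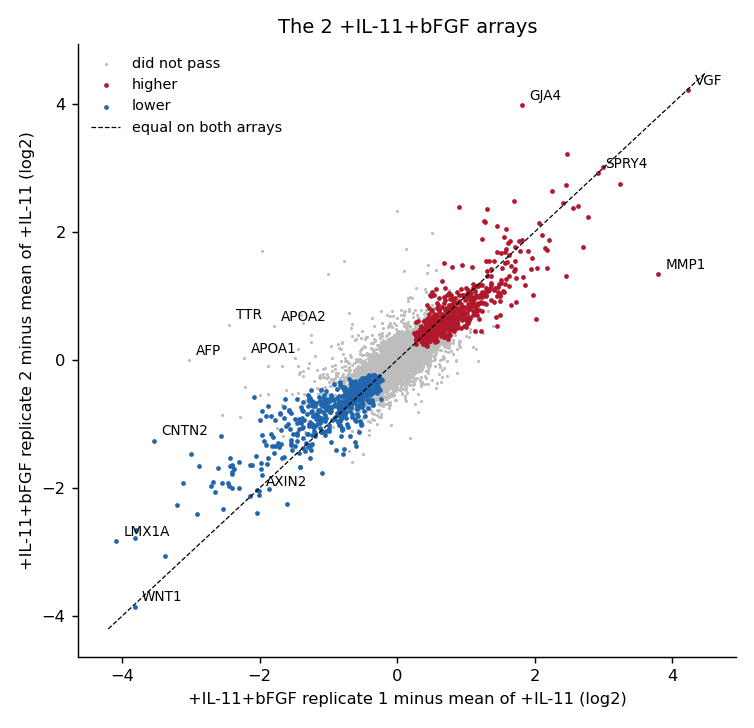
For each gene, the log2 difference of +IL-11+bFGF replicate 1 (horizontal) and replicate 2 (vertical) from the mean of the +IL-11 arrays, with genes that rose in red and genes that fell in blue. AFP, TTR, APOA1 and APOA2 lie far to the left of the dashed line of equal difference, MMP1 to its right and GJA4 above it.

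The same contrast without IL-11, +bFGF against -bFGF, used 4 other arrays of the series and was fitted on the same 9156 genes. There 671 genes rose and 723 fell, 7.33% and 7.9% of those tested. Of the 520 genes that rose with IL-11, 396 also rose without it, and of the 523 that fell, 408 also fell without it. In all, 0 genes passed in opposite directions. The 124 and 115 genes that passed only with IL-11 had the same sign without it in 123 and 114 cases, and 275 and 315 genes passed only without IL-11. Passing in 1 contrast and not in the other does not show a difference, so the difference between the contrasts was tested itself.

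In that interaction test 0 of the 9156 genes passed (lowest adjusted p = 0.998). An unadjusted p under 0.05 was reached by 167, fewer than this threshold passes on average where no gene differs. The median SE of the difference was 0.19 on the log2 scale, and for the 1043 genes its 95% interval reached a median of 0.46 to either side, before any adjustment for the number of genes. A difference that did not pass is therefore not shown to be absent, also where it is larger than that. VGF had log2 fold changes of 4.22 with IL-11 and 4.16 without, a difference of 0.06 (SE 0.16). POU5F1 had 1.05 with IL-11 and 1.44 without, a difference of -0.39 (SE 0.16, unadjusted p = 0.0366, adjusted p = 0.998). Among the 10 genes with the lowest interaction p, PTMA, prothymosin alpha, was the only gene that passed with IL-11 (0.60 with IL-11 and 0.07 without, a difference of 0.52, SE 0.15), and it missed the threshold without replicate 1 of either group (adjusted p = 0.0772 for +IL-11+bFGF and 0.0557 for +IL-11).

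Over all 9156 genes, the fold changes with IL-11 followed those without it with a regression slope of 0.81 and a Pearson r of 0.88, across genes, which are not independent replicates, and after 1 normalization of all 8 arrays. The slope was 0.92 from +IL-11+bFGF replicate 1 alone and 0.71 from replicate 2 alone. Each line was fitted through the origin. Noise in the fold changes without IL-11 lowers such a slope, so 0.81 does not measure how much of the response remained with IL-11. The spread (SD) of the fold changes with IL-11 was 0.93 times that without it, 1.05 times with replicate 1 alone and 0.90 times with replicate 2 alone. A single array carries more noise than a mean of 2, so these ratios do not place either array against an equal spread. Over the 1394 genes that passed without IL-11, the ratio was 0.909 with both arrays, 1.004 with replicate 1 and 0.840 with replicate 2. Those genes were picked by the contrast in the denominator, so these ratios do not settle it either.

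**Figure D5:**
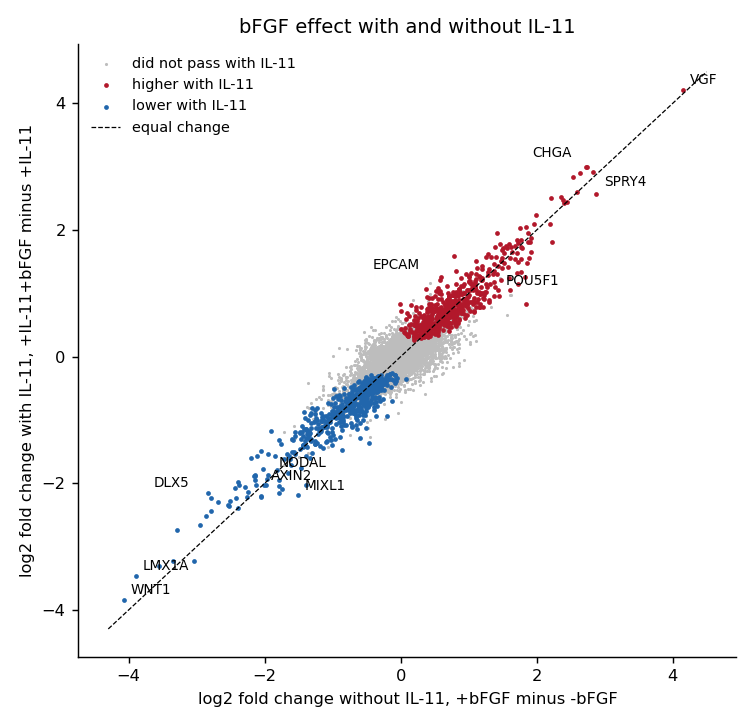
Log2 fold change without IL-11 (+bFGF minus -bFGF, horizontal) against that with IL-11 (+IL-11+bFGF minus +IL-11, vertical) for each of 9156 genes, with genes that rose with IL-11 in red and genes that fell in blue. The points follow the dashed line of equal change from the falls at the lower left to VGF at the upper right (slope 0.81, r 0.88).

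Last, of 10 genes for factors that the study predicted to support hESCs, 1 rose and 2 fell (median -0.17). They were JUN, which rose 1.43-fold, and NRIP1, a nuclear receptor corepressor, and ACKR3, an atypical chemokine receptor, which fell 1.68-fold and 2.05-fold. NRIP1 and ACKR3 missed the threshold without +IL-11+bFGF replicate 1 (adjusted p = 0.0583 and 0.103) or +IL-11 replicate 2 (0.0598 and 0.119). IL11 itself had 97.4 and 80.9 in +IL-11+bFGF, against 43.2 and 53.5, not above detection, in +IL-11 (at least 1.19-fold higher, adjusted p = 0.0845), which did not pass. Of 8 chemokines and their receptors, CXCL5 rose and ACKR3 and CXCL14, a chemokine of epithelia, fell, the last with 123 and 119, against 405 and 219 in +IL-11 (-1.30, SE 0.27, adjusted p = 0.0146), and CXCL14 missed the threshold without either +IL-11+bFGF array (0.0735 and 0.0549) or +IL-11 replicate 1 (0.083).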

How the data were processed

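Expression was read on Illumina human-8 BeadChips, with 8 arrays in 4 groups taken from the sample labels. The deposited table gives each probe's intensity on a linear scale before any normalization, and beside it a detection p-value that the authors' software computed from negative control beads. A second deposited table holds the authors' normalized intensity (BeadStudio with rank invariant normalization in the methods, GenomeStudio in the submitters' processing notes, no version stated there) and was used as an alternative. Background was corrected by normexp (neqc, offset 16, controls inferred from the detection p-values), followed by quantile normalization and log2 over 8 arrays, in limma 3.58.1 (R 4.3.3). Of 24526 probes, 21834 have 1 gene symbol in the platform annotation, 2692 are unnamed here and 0 have several. A gene was represented by its passing probe with the highest mean. The fit held a mean per group over all 8 arrays with no covariate (4 residual and 5.69 prior degrees of freedom, trend on intensity). The 3 contrasts were each adjusted by Benjamini-Hochberg. An exact permutation test of 2 against 2 arrays cannot go below 0.333 and was not used. The number of arrays limits the precision. The fit was tested on simulated data.

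Named genes are POU5F1, NANOG and SOX2, the 15 largest rises and falls among genes past the threshold, up to 5 members per list by lowest p, the 10 lowest p-values of the interaction, and genes on which a count of 5 or fewer rests, with some left out for length and 1 of the largest falls not reported here. Genes outside this rule are marked as chosen after their values were seen, and STAT3 and LEF1 were also chosen so. The members and the 36 gene lists (869 symbols, 803 on the array) were chosen with earlier results of these data known. Promoter windows are from RefSeq (GRCh38.p14). Alternatives changed background correction, normalization, table, detection filter, probe choice, variance model, arrays, block and test.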

Additional observations from a re-analysis of the deposited data

How the results depend on the processing

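In the comparison of +IL-11+bFGF with +IL-11, 520 genes rose and 523 fell. With 1 of these 4 arrays left out, 397 to 763 genes passed, with 205 to 355 rises and 192 to 408 falls. The methods' t-test on 2 against 2 arrays called 0 genes after Benjamini-Hochberg adjustment (0 rises and 0 falls) and 1518 at an unadjusted p under 0.05. A fit with a replicate block called 1203 genes, and since the correlation of replicate differences between groups ran from -0.07 to 0.19, the numbers were not taken as pairs. The other settings called 813 to 1127 genes, the fewest with detection required on all 4 arrays. Median scaling gave 602 rises and 451 falls. The interaction called 0 genes in each setting in which it was run. Of 153 genes that passed and are named in the text, 80 passed with each of the 4 arrays left out in turn. Of the genes named in the text, those whose direction reversed had not passed. With single arrays left out, SOX2 ran from -0.0298 to 0.0939 (-0.02 without +IL-11+bFGF replicate 2), STAT3 from -0.0425 to 0.237, AFP from -3.03 to 0.000738, TTR from -2.44 to 0.55, APOA1 from -2.23 to 0.0271 and APOA2 from -1.79 to 0.53. For AFP, TTR, APOA1 and APOA2 the highest value was without +IL-11+bFGF replicate 1 and the lowest without its replicate 2. The cause was not tested.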
